A study of Mus musculus with 18 samples.

Results

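This comparison sets 3 non-SP arrays with high Efemp1 against the 3 non-SP arrays of the line A2C12, which are 6 of the 18 arrays of the series. The 3 Efemp1-high arrays are titled betaD5 1, cRAF_cMYC 1 and cRAF_cMYC 2. They were chosen as the non-SP arrays outside A2C12 in which Efemp1, a secreted glycoprotein of the fibulin family, lay above 9 on the log2 scale after quantile normalization. Efemp1 was at 13.51, 13.08 and 13.59 in these arrays, at 3.97, 3.90 and 3.80 in the arrays just outside the limit (betaD5 2, betaD5 3 and cRAF_cMYC 3) and at 13.68, 13.57 and 13.66 in A2C12 1, 2 and 3. Efemp1 therefore separated the chosen arrays from the other betaD5 and cRAF_cMYC arrays and not from A2C12. From 3 lines of mouse lung carcinoma the series profiled a sorted side population (SP) and the remaining, non-SP cells, each on 3 Affymetrix arrays per line. SP cells are sorted by their low Hoechst dye content, which ABC transporters produce by pumping the dye out, and non-SP cells keep the dye. All 3 lines were grown from lung tumours of 8-month-old mice carrying both a c-myc and a c-raf transgene, so both sides of the comparison share that genotype, and all were cultured in DMEM with 10% fetal calf serum. The labels name no promoter for either transgene, no clone and no treatment, and they do not say whether replicates were separate cultures, so the p-values below measure the spread between these samples, which may be technical.

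The array titled betaD5 1 went against its label. Over the 10916 genes tested, the 3 Efemp1-high non-SP arrays correlated with each other at 0.975 to 0.982 (Pearson r of log2 levels) and with betaD5 2, betaD5 3 and cRAF_cMYC 3 at only 0.890 to 0.924. The A2C12 arrays correlated with each other at 0.979 to 0.987 and with the Efemp1-high arrays at 0.877 to 0.901. The sets below are therefore those the expression values form, which cross the labelled lines betaD5 and cRAF_cMYC. The total SP counts, the calls of the genes with the largest differences and some list counts are also given without betaD5 1. Because the non-SP values chose the members, the non-SP contrast is described and not tested. The test was run in the SP arrays of the same lines and numbers, which the choice did not use. Each SP array correlated with its own non-SP array at 0.990 to 0.997, so the SP arrays repeat the contrast in other arrays and are not independent of these cells. The 3' minus 5' control probe signal of Gapdh, which rises as RNA degrades, was 0.15 to 0.56 (log2) in the Efemp1-high non-SP arrays and 0.01 to 0.10 in A2C12. That of Actb was 0.43 to 0.74 in the Efemp1-high and 0.21 to 0.40 in the A2C12 non-SP arrays. In the SP arrays the ranges of the 2 sets overlapped, at -0.08 to 0.29 and -0.03 to 0.23 for Gapdh. For Actb they were 0.31 to 0.60 and 0.21 to 0.73. The part of these signals in the non-SP differences was not tested.

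Cells cultured from a lung tumour can carry programmes of several origins. Airway and alveolar epithelium is known by surfactant, secretoglobin and cadherin genes, fibroblasts by collagens and growth factor receptors, and mesothelium, the lining of the lung surface, by uroplakins, mesothelin and the transcription factor Wt1 together with keratins. Imprinted genes are expressed from 1 parental copy only, and Hox genes keep a record of position along the body axis, so both families often differ between lines of separate origin.

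The Efemp1-high and A2C12 arrays differed by over 1 log2, with no overlap between the 3 and 3 non-SP arrays, at 699 genes that were higher (6.40% of those tested) and 618 that were lower (5.66%). Of these, 36 were higher and 17 lower by over 4 log2. Without a limit on size, 51.3% of genes had non-SP arrays that did not overlap. Upk3b, Gpm6a, Lrrn4, Ndn, Peg3 and Aldh1a1 were among the highest, and Aldh3a1, Cxcl15, Scara5, Igf2 and Il33 were among the lowest. The 15 genes named in each direction had the largest non-SP differences among those also called in the SP arrays. Only genes whose non-SP arrays did not overlap in that direction could be named, so their lack of overlap was fixed by the choice. Values are log2 levels, listed as betaD5 1, cRAF_cMYC 1 and cRAF_cMYC 2 for the Efemp1-high set and as 1, 2 and 3 for A2C12, and differences are Efemp1-high minus A2C12. The files give no detection calls, and differences that end near the bottom of the scale are compressed.

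Upk3b, the uroplakin that marks mesothelium, showed the largest difference. Its levels were 13.57, 13.20 and 12.30 in the Efemp1-high arrays and 4.79, 4.76 and 4.31 in A2C12, a difference of 8.40. In the SP arrays the difference was 8.03 ± 0.41 (SE, n = 3 and 3, limma adjusted p = 2.88e-08). Gpm6a, a membrane glycoprotein of neurons that mesothelial cells also make, stood at 12.14, 11.95 and 10.48 against 3.36, 3.43 and 3.36, and its SP difference was 7.52 ± 0.43 (limma adjusted p = 7.8e-08). For Lrrn4, a leucine-rich repeat membrane protein used as a mesothelial marker, the levels were 12.26, 12.17 and 11.11 against 4.51, 4.37 and 4.09, and the SP difference was 7.07 ± 0.47 (limma adjusted p = 2.86e-07). None of these genes overlapped between the sets, which their choice required, and cRAF_cMYC 2 was the lowest Efemp1-high array for each of them.

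Ndn and Peg3, imprinted genes read from the paternal copy, were lower in every A2C12 array than in any Efemp1-high array, as the choice required. Ndn, which encodes the growth suppressor necdin, was at 11.14, 11.79 and 12.02 against 3.94, 4.37 and 4.12, with an SP difference of 7.35 ± 0.21 (limma adjusted p = 1.28e-10). Peg3, a large zinc finger protein, was at 12.30, 11.98 and 12.30 against 5.22, 6.07 and 5.17, with an SP difference of 6.75 ± 0.20 (limma adjusted p = 1.28e-10). Other probe sets of Ndn gave SP differences from -0.37 to 7.77, and those of Peg3 from -0.19 to 4.23, with the opposite sign in 1 of Ndn and 2 of Peg3. The 250 bases before the annotated start of Ndn, Peg3, Upk3b and Lrrn4 are shown as the upstream sequence of imprinted and mesothelial genes among the leading higher genes. That of Gpm6a, whose difference was larger than that of Lrrn4, is not shown. They are RefSeq sequences of GRCm38.p6, written 5′ to 3′ on the gene's strand, with each CG dinucleotide in capitals. Ndn lies on the plus strand at chr7:62348027-62348276, Peg3 on the minus strand at chr7:6730420-6730669, Upk3b on the plus strand at chr5:136038246-136038495 and Lrrn4 on the minus strand at chr2:132880863-132881112.
Ndn: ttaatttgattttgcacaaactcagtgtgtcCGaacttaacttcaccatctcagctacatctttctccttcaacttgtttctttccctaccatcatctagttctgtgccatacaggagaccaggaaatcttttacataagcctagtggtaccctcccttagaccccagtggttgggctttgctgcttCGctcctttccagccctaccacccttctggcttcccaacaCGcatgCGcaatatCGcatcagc
Peg3: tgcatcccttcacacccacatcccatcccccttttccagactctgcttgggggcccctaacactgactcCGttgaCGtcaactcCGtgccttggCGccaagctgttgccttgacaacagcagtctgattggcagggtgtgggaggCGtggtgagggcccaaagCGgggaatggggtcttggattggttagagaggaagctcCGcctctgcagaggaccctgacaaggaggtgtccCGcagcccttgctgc
Upk3b: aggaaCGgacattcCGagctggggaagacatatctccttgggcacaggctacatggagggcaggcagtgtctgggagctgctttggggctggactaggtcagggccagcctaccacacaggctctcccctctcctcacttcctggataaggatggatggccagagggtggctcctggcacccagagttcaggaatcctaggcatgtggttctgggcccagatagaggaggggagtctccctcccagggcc
Lrrn4: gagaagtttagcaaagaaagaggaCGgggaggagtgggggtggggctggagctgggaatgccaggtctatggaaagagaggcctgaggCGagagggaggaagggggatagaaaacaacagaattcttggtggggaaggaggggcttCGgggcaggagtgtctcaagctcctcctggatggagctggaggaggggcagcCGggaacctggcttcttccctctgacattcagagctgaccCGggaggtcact
CG, which reads the same on both strands, occurred 5 times before Ndn, 8 times before Peg3, 2 times before Upk3b and 5 times before Lrrn4. Of 32851 promoter entries of this length, 55.6% held at least 5, 43% at least 8 and 81.2% at least 2, with a median of 6. Among the 30 leading genes, 22 had an entry, with a median of 5 CG in the 11 that were higher and 7 in the 11 that were lower. These counts describe the windows only, since methylation was not measured.

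The remaining higher genes covered several functions. Ivns1abp, a kelch-repeat protein, was at 11.59, 12.05 and 11.54 against 3.51, 3.51 and 3.41, with an SP difference of 8.28 ± 0.21 (limma adjusted p = 6.19e-11), and another of its probe sets gave 2.77. Aldh1a1, a retinaldehyde dehydrogenase whose activity is widely used to sort progenitor cells, was at 13.59, 13.19 and 12.28 against 6.11, 5.12 and 4.40, an SP difference of 7.43 ± 0.39 (limma adjusted p = 3.8e-08). Pmaip1, the proapoptotic BH3-only protein Noxa, was at 10.98, 11.31 and 11.30 against 5.06, 4.82 and 3.30. All of these were apart in every array, as the choice required. The NADPH oxidase membrane subunit Cyba, at 11.75, 11.79 and 11.87 against 5.60, 5.69 and 5.80, was nearly constant within each set. Nt5e, the ectonucleotidase CD73, was at 10.59, 11.07 and 9.95 against 4.19, 4.27 and 4.004 (SP difference 5.88 ± 0.28), but its other probe sets gave 0.20 and 0.37. Colec12, a scavenger receptor of the collectin family, was higher by 5.99 in the SP arrays, Rspo3, a secreted amplifier of Wnt signals, by 5.70, and Nrep, a neuronal regeneration-related protein, by 5.41. Stromal matrix genes completed the group. Dpt, the dermal matrix protein dermatopontin, was at 10.68, 11.72 and 11.41 against 5.04, 5.15 and 4.87, and Postn, the matricellular protein periostin, was at 9.95, 12.05 and 11.09 against 5.55, 5.25 and 5.01. Postn spread over more than 2 log2 within the Efemp1-high set and was lowest in betaD5 1.

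Genes that were lower in the Efemp1-high arrays were led by Aldh3a1, an aldehyde dehydrogenase of aromatic and lipid aldehydes. Its levels were 4.14, 4.27 and 4.13 against 12.66, 12.34 and 12.07 in A2C12, a difference of -8.18, and the SP difference was -7.81 ± 0.20 (limma adjusted p = 6.39e-11). Aldh1a1 and Aldh3a1, members of the same enzyme family, thus differed in opposite directions. Cxcl15, a chemokine known from lung epithelium, was at 4.03, 4.35 and 4.40 against 10.30, 11.27 and 9.76. Scara5, a scavenger receptor that takes up ferritin, was at 7.72, 8.13 and 8.34 against 13.71, 13.68 and 13.77, near the top of the scale in A2C12, while another Scara5 probe set gave an SP difference of -0.10.

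Further metabolic and secreted genes followed the same direction. Igf2, an imprinted fetal growth factor, was at 6.67, 7.005 and 6.18 against 12.31, 11.99 and 10.86, with an SP difference of -4.43 ± 0.31 (limma adjusted p = 4.76e-07) and -0.56 from another probe set. Il33, an alarmin cytokine stored in the nucleus, was at 9.09, 9.16 and 10.05 against 13.38, 13.39 and 13.65. Ackr3, an atypical receptor that scavenges the chemokine Cxcl12, was at 6.44, 6.37 and 6.13 against 11.56, 11.20 and 11.69. As the choice required, no Efemp1-high array reached the lowest A2C12 array for any of these. Ptger3, a prostaglandin E2 receptor, was at 5.50, 6.19 and 6.81 against 10.12, 10.20 and 10.93, with -0.36 from another probe set. Aox3, an aldehyde oxidase, Ces1g, a carboxylesterase, and Gstk1, a glutathione transferase, had SP differences of -5.000, -4.46 and -4.37. The SP differences of the others were -5.34 for the secreted protein Adamtsl3, -5.27 for the chloride channel regulator Clca3a1, -4.13 for the vesicle protein Sytl2, -3.63 for the small membrane protein Smagp and -3.47 for the protease cathepsin E, whose other probe set gave -0.02. Of the 30 leading genes, 14 had other probe sets, 25 in all, of which 3 had the opposite sign and 12 more gave under 50% of the difference.

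**Figure D1:**
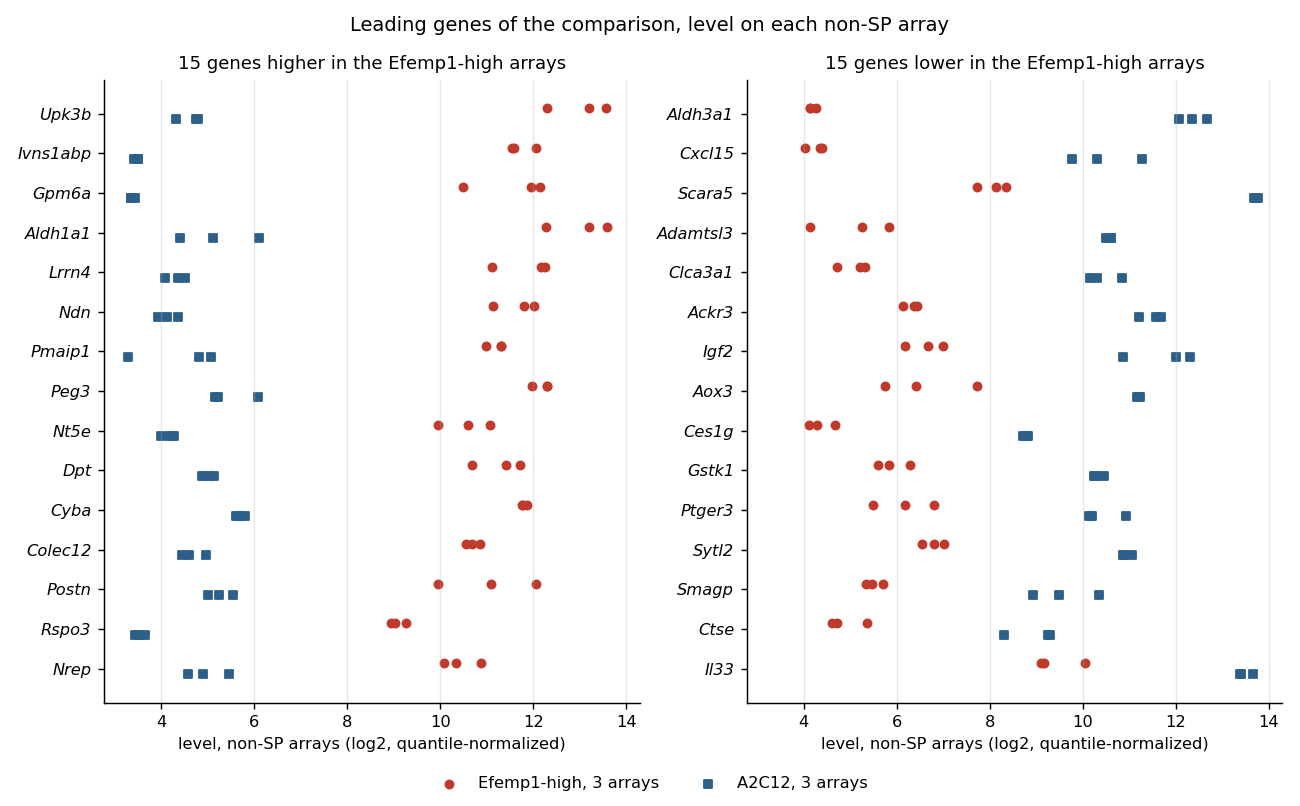
Log2 level (horizontal axis) of the 30 leading genes on each of the 6 non-SP arrays, circles for the 3 Efemp1-high arrays and squares for the 3 A2C12 arrays. In every row the circles and squares are apart, which the choice of genes required. Several genes, among them Postn, Pmaip1, Aldh1a1, Gpm6a and Igf2, show a wide spread within a set. The set means differ most for Upk3b (8.40) among the higher genes and for Aldh3a1 (-8.18) among the lower.

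The SP arrays repeated the contrast. By limma with Benjamini-Hochberg adjustment, 4159 of 10916 genes (38.1%) differed at an adjusted p under 0.05, 2229 higher (20.4%) and 1930 lower (17.7%), with a median difference of 0.01 over all genes. Of these, 713 were higher and 545 lower by over 1 log2. Of the 1317 genes that were apart by over 1 log2 in the non-SP arrays, 1293 (98.2%) were called in the same direction in the SP arrays and 0 in the other. Of those 1317 genes, 48 were X- or Y-linked and are not named. The median 95% interval of an SP difference was ±0.37, so smaller differences were often not resolved. Without the array betaD5 1 of the SP fraction, 1765 genes were higher and 1499 lower, and all 30 leading genes kept their call. The scale matters more than any array: on the values as deposited, whose array medians were 6.04 to 6.53 in the Efemp1-high and 5.81 to 6.02 in the A2C12 non-SP arrays, the median gene was 0.52 higher and 91.4% of calls were higher, against 53.6% after quantile normalization and 68% with median centring. Directions below are relative to the quantile-normalized median.

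**Figure D2:**
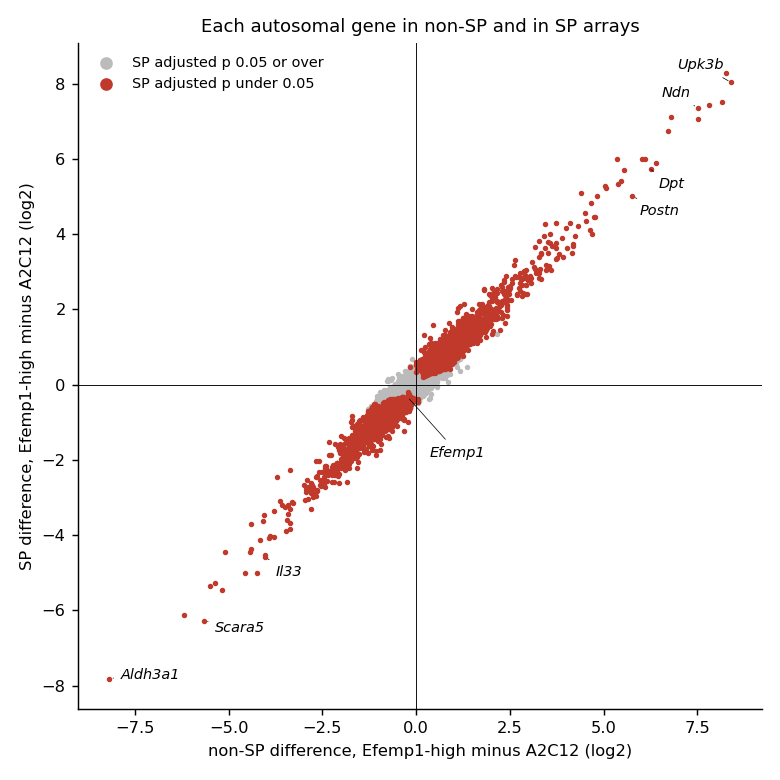
Difference between Efemp1-high and A2C12 arrays (log2) for each autosomal gene tested, in the non-SP arrays (horizontal) and in the SP arrays (vertical), with genes at an SP adjusted p under 0.05 in red. Points lie along a diagonal from Aldh3a1 at -8.18 and -7.81 to Upk3b at 8.40 and 8.03, and Efemp1 lies near the origin.

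Gene lists are described by how many of their tested members were higher or lower in the SP arrays, to be read against 20.4% and 17.7% of all genes tested. A gene was tested if its mean over all 18 arrays passed the filter, so a gene can be in the count through 1 set alone, and the counts are descriptions and not tests of the lists. X-linked members, at most 1 in a list, are counted and not named. In parentheses follow the counts on the deposited scale, where 4556 of all genes tested were higher and 428 lower. In sorted bulk cells, fewer cells of a type and less RNA per cell cannot be told apart.

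Among the mesothelial genes, 6 of the 12 tested members (15 listed) were higher and 1 lower (as deposited, 7 and 1), with a median difference of 1.36. The mean level of the list was 8.70 to 9.60 in the Efemp1-high non-SP arrays and 6.72 to 6.99 in A2C12. After Upk3b, Gpm6a and Lrrn4 came Bnc1, the zinc finger protein basonuclin, at 11.14, 10.70 and 10.001 against 6.32, 5.82 and 5.45 (SP difference 4.47 ± 0.29, limma adjusted p = 2.33e-07). Wt1 was at 10.86, 9.92 and 9.56 against 5.60, 5.50 and 6.70 (SP difference 3.69 ± 0.44, limma adjusted p = 4.33e-05). Mesothelin, encoded by Msln, ranged from 9.37 to 10.77 against 7.50 to 7.66 (SP difference 2.40 ± 0.47). Other listed markers went the other way. Krt19, a keratin of mesothelium and of epithelia, ranged from 9.40 to 11.26 in the Efemp1-high arrays and from 11.84 to 12.45 in A2C12, and its SP difference of -1.42 ± 0.54 did not pass (limma adjusted p = 0.0532). Calb2, the calcium-binding protein calretinin, was lower, at 6.08 to 6.61 against 6.90 to 7.70 (SP difference -0.58 ± 0.21, limma adjusted p = 0.0415). Calb2 was the lower member, and 0 were lower with median centring, with the 6 compared arrays alone, or without the SP array cRAF_cMYC 2, A2C12 1 or A2C12 2, against 2 without cRAF_cMYC 1. Msln, Krt19 and Calb2 were picked after their values were seen.

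Fibroblast genes were also higher in part. Of the stromal list, 6 of the 12 tested members (20 listed) were higher and 2 lower (as deposited, 7 and 0), with a median of 0.53, and its mean non-SP level was 9.02 to 9.29 against 8.08 to 8.10. With no filter, 6 of 19 members were higher and 2 lower, and the median fell to 0.01. Thy1, a surface glycoprotein of fibroblasts, was at 10.90, 10.37 and 11.80 against 5.43, 5.60 and 5.88 (SP difference 5.34 ± 0.25, limma adjusted p = 1.22e-08). Pdgfra, the receptor that marks lung fibroblasts, was at 12.20, 12.13 and 12.42 against 10.17, 9.86 and 10.19 (SP difference 2.21 ± 0.33, limma adjusted p = 0.00026). Twist2, a mesenchymal transcription factor, was higher by 1.56 ± 0.20. Vimentin, the common mesenchymal filament, was near the top of the scale in both, at 13.81 to 14.19 against 14.23 to 14.42, and was lower in the SP arrays by a signed difference of -0.31 ± 0.09. It was picked after its values were seen.

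Among lists with 9 or more tested members, collagen chains had the largest share of higher members in the quantile-normalized, filtered values. Of 18 tested (23 listed), 12 were higher (66.7%) and 3 lower (as deposited, 15 and 1), with a median of 0.92. On the deposited scale DNA replication (21 of 24) and sterol synthesis (14 of 16) had larger shares. With no filter, 12 of 23 collagen chains were higher and 5 lower, and the mesothelial share (8 of 15) was slightly larger. Col8a1, a short-chain collagen of vessel walls, was at 8.47, 9.14 and 8.45 against 5.58, 5.33 and 5.16 (SP difference 3.46 ± 0.29, limma adjusted p = 1.99e-06), while its other probe sets gave 0.99 and -0.17. The fibrillar chain Col5a2 was at 13.76, 13.76 and 13.57 against 11.22, 11.37 and 12.12 (SP difference 1.99 ± 0.19), and the basement membrane chain Col4a1 at 12.84, 12.44 and 12.46 against 10.53, 10.82 and 10.85 (SP difference 1.96 ± 0.14). Both sets expressed these chains strongly. Col14a1, a fibril-associated collagen, went the other way, at 7.14, 7.51 and 7.57 against 11.23, 11.32 and 10.82 (SP difference -2.47 ± 0.19, limma adjusted p = 7.93e-07). Leaving out the SP array A2C12 3 reduced the lower members to 1.

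The elastic fibre list, to which Efemp1 belongs, was split, and 5 of the 16 tested members (22 listed) were higher and 5 lower (as deposited, 8 and 0), with a median of -0.07 (0.47 as deposited). Loxl1, the lysyl oxidase that cross-links elastin, was at 10.82, 10.59 and 11.05 against 6.32, 6.50 and 6.10 (SP difference 4.56 ± 0.16, limma adjusted p = 6.45e-10). Mfap5, a microfibril glycoprotein, was at 8.76, 9.56 and 9.48 against 5.85, 5.58 and 5.73 (SP difference 3.15 ± 0.19). The fibulins Fbln1 and Fbln5 were higher by 2.49 ± 0.21 and 1.60 ± 0.18. Efemp1 itself did not pass the test, at -0.31 ± 0.16 (limma adjusted p = 0.133). Leaving out the SP array A2C12 3 reduced the lower members of the list to 3.

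Of the matrix glycoproteins and proteoglycans, 9 of the 24 tested members (28 listed) were higher and 7 lower (as deposited, 14 and 3), with a median of 0.22. Dcn, the collagen-binding proteoglycan decorin, was at 13.45, 13.58 and 13.17 against 11.45, 9.56 and 8.47 (SP difference 4.003 ± 0.38, limma adjusted p = 6.49e-06), and the A2C12 arrays alone spread over almost 3 log2. Tnc, the wound-matrix protein tenascin C, was at 10.30, 9.97 and 11.17 against 8.04, 7.86 and 7.70 (SP difference 3.17 ± 0.34). Tgfbi, a TGF-beta-induced adhesion protein, was at 11.26, 11.996 and 12.14 against 8.94, 9.13 and 10.06 (SP difference 1.83 ± 0.27, limma adjusted p = 0.00021). Matrix proteases and their inhibitors had 8 higher and 2 lower of 20 tested and 23 listed (as deposited, 11 and 0), with a median of 0.29, and 4 lower without the SP array A2C12 1. Mmp23, a membrane-tethered metalloproteinase, was at 10.13, 10.24 and 10.13 against 5.96, 6.10 and 6.36 (SP difference 3.64 ± 0.20). Adamts5, an aggrecan-cleaving protease, was higher by 3.49 ± 0.38, the gelatinase Mmp2 by 2.57 ± 0.18 and Serpinf1, the secreted serpin PEDF, by 1.96 ± 0.22.

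Contractile genes moved in both directions. Of the smooth muscle and pericyte list, 4 of the 11 tested members (15 listed) were higher and 5 lower (as deposited, 5 and 2), with a median of 0.03. Tagln, an actin-binding protein of smooth muscle, was at 9.25, 10.65 and 10.32 against 6.65, 6.36 and 6.92 (SP difference 4.28 ± 0.34, limma adjusted p = 1.18e-06). Mylk, the myosin light chain kinase, was higher by 2.29 ± 0.40, the myosin light chain Myl9 by 2.14 ± 0.34 and calponin, Cnn1, by 2.03 ± 0.27. Acta2, smooth muscle actin, was lower, at 11.36 to 12.69 against 12.74 to 13.21 in the non-SP arrays (SP difference -0.79, limma adjusted p = 0.0151), and was picked after its values were seen. Without the SP array betaD5 1 or cRAF_cMYC 2, 3 members were lower.

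Epithelial markers differed in level among themselves, and several defining ones did not pass the filter. Surfactant protein C, Sftpc, ranged from 5.35 to 5.59 in the Efemp1-high arrays and 6.11 to 6.35 in A2C12, below the mean level of 6.54 that the filter required. The lung epithelial factor Nkx2-1 ranged from 5.87 to 6.29 and 5.88 to 6.12, and the club cell secretoglobin Scgb1a1 from 4.06 to 4.43 and 4.73 to 5.34. E-cadherin, Cdh1, the adhesion protein of epithelia, was at 3.65 to 4.07 and 6.25 to 6.997. The labels call all of these lines lung carcinoma, and these markers, picked from their lists, stayed at or under 7 on both sides. Sftpc, Scgb1a1 and Cdh1 were nonetheless higher in every A2C12 array than in any Efemp1-high array. Hopx and Pdpn of the alveolar type I list and Krt19 were well above the filter level. Of the epithelial list, 9 of 24 members with a probe set were above the filter level in every A2C12 array and 8 in every Efemp1-high array. Of the alveolar type II list these were 7 and 5 of 12. Of the alveolar type II list, 0 of the 6 tested members (13 listed) were higher and 0 lower (as deposited, 2 and 0; quantile-normalized, unadjusted p under 0.05, 1 higher and 0 lower) by limma, and the smallest p-values belonged to Lpcat1 (SP difference 0.63, limma adjusted p = 0.0528) and Etv5 (0.42, limma adjusted p = 0.119).

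Among alveolar type I genes, 1 of the 5 tested members (8 listed) was higher and 2 lower (as deposited, 1 and 2), with a median of -0.31 that turned to 0.24 on the deposited scale. Hopx, a homeodomain-only cofactor, was at 7.34, 7.81 and 7.58 against 10.10, 10.32 and 10.28 (SP difference -2.42 ± 0.19, limma adjusted p = 9.49e-07). The water channel Aqp5 was lower (SP difference -1.69 ± 0.22), and podoplanin, Pdpn, which mesothelium and fibroblasts also make, was higher by 0.64 ± 0.15. Of the club and ciliated list, 1 of the 2 tested members (10 listed) was higher and 0 lower (as deposited, 1 and 0; quantile-normalized, unadjusted p under 0.05, 0 lower), the called gene being Tppp3 (0.53 ± 0.18), whose call was lost without the SP array cRAF_cMYC 1, cRAF_cMYC 2 or A2C12 1. Of the epithelial junction and keratin list, 1 of the 11 tested members (24 listed) was higher and 2 lower (as deposited, 3 and 1), with a median of -0.34 that turned to 0.11 on the deposited scale. Pkp2, a desmosomal plakophilin, was at 7.67, 7.18 and 7.22 against 4.73, 4.90 and 4.56 (SP difference 3.30 ± 0.23), but its other probe sets gave -0.21 and -0.03. The splicing factor Esrp2 was lower (SP difference -0.84 ± 0.17) and so was the polarity protein Crb3 (-0.49 ± 0.16), and neither passed on the deposited scale. The Crb3 call was also lost without the SP array betaD5 1, cRAF_cMYC 2 or A2C12 2. Without the SP array cRAF_cMYC 1, 4 members were lower. With no filter, the epithelial junction and keratin list had 1 higher and 5 lower of 24. The alveolar type I list then had 1 and 4 of 8, and the alveolar type II list 0 and 1 of 12. That of club and ciliated genes had 0 and 1 of 10.

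Genes that switch in epithelial to mesenchymal transition were split, since 3 of the 9 tested members (13 listed) were higher and 2 lower (as deposited, 4 and 1), with medians of -0.02 and, as deposited, 0.46. The repressor Zeb1 was at 10.75, 10.87 and 11.01 against 9.50, 9.43 and 9.50 (SP difference 1.28 ± 0.14, limma adjusted p = 2.36e-05). Prrx1, a mesenchymal homeobox factor, was lower (SP difference -0.82 ± 0.17) and did not pass on the deposited scale. The GPI-anchored cadherin Cdh13 was lower (SP difference -1.10 ± 0.19). Of the leukocyte list, 5 of 12 members with a probe set were above the filter level in every A2C12 array and 4 in every Efemp1-high array, and of the endothelial list 4 and 5 of 13. The defining markers Ptprc and Pecam1 were under it. Ptprc, the common leukocyte antigen, ranged from 3.85 to 4.10 against 3.61 to 4.01, and the endothelial adhesion protein Pecam1 from 4.07 to 4.93 against 4.77 to 5.54. Of the endothelial list, 1 of the 5 tested members (13 listed) was higher and 0 lower (as deposited, 2 and 0; quantile-normalized, unadjusted p under 0.05, 0 lower). The called gene was the adhesion gene Esam (0.49 ± 0.18), and it lost its call without the SP arrays betaD5 1, cRAF_cMYC 1, A2C12 1 or A2C12 2. Of the leukocyte list, 0 of the 6 tested members (13 listed) were higher and 1 lower (as deposited, 2 and 1; quantile-normalized, unadjusted p under 0.05, 0 higher). The lower gene in the quantile-normalized fit was Csf1r, the receptor for macrophage colony-stimulating factor, at 7.67, 7.71 and 7.45 against 10.62, 10.55 and 10.57 (SP difference -3.08 ± 0.22, limma adjusted p = 5.9e-07).

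Among integrins, 3 of the 12 tested members (18 listed) were higher and 4 lower (as deposited, 5 and 3), with a median of -0.23 (0.28 as deposited). Itgb3, the beta chain of the vitronectin receptor, was at 8.31, 8.14 and 8.78 against 11.06, 11.28 and 11.24 (SP difference -2.67 ± 0.22, limma adjusted p = 1.68e-06). Itga6 and Itgb4, which pair as the laminin receptor of hemidesmosomes, were both lower, with SP differences of -1.41 ± 0.34 and -1.34 ± 0.24. Itga5, of the fibronectin receptor, was higher by 1.09 ± 0.26.

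Genes that record position and lineage differed. Of the Hox genes, 8 of the 17 tested members (32 listed) were higher and 0 lower (as deposited, 13 and 0; quantile-normalized, unadjusted p under 0.05, 0 lower), with a median of 0.53, and 0 were lower with any SP array left out. Hoxc4 was at 9.66, 9.29 and 10.47 against 6.39, 6.46 and 5.70 (SP difference 3.68 ± 0.30, limma adjusted p = 1.72e-06). Hoxa9 was at 9.09, 9.03 and 8.39 against 6.27, 6.10 and 5.85 (SP difference 2.48 ± 0.34), although another of its probe sets gave -0.16. Hoxb9 and Hoxb5 were higher by 1.76 ± 0.21 and 1.71 ± 0.18. Of other lineage transcription factors, 5 of the 24 tested members (37 listed) were higher and 7 lower (as deposited, 8 and 4), with a median of -0.11 (0.38 as deposited). Gata6, a factor of endoderm and mesothelium, was at 11.07, 10.47 and 10.04 against 7.46, 7.07 and 7.04 (SP difference 3.51 ± 0.24), with 0.33 from another of its probe sets. Irx3, an Iroquois homeobox factor, was lower, at 6.63, 6.42 and 6.67 against 9.77, 10.16 and 10.06 (SP difference -3.45 ± 0.17, limma adjusted p = 2.67e-08). The developmental factor Sox11 was higher by 2.60 ± 0.26.

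Imprinted genes gave 5 higher and 2 lower of 9 tested and 23 listed (as deposited, 6 and 1), with a median of 0.66. With no filter these were 8 and 3 of 21, with a median of 0.26. Beside Ndn and Peg3, Sgce, a paternally expressed sarcoglycan, was at 10.19, 11.07 and 10.46 against 6.07, 5.66 and 5.50 (SP difference 5.02 ± 0.17, limma adjusted p = 6.4e-10). Igf2, also read from the paternal copy, went the other way. In the IGF system, which carries the Igf2 signal, 4 of the 11 tested members (13 listed) were higher and 2 lower (as deposited, 7 and 2), with a median of 0.44. The binding protein Igfbp6, which prefers Igf2, was at 12.74, 12.25 and 12.59 against 11.25, 10.76 and 10.63 (SP difference 1.70 ± 0.30). Igfbp4 was lower (SP difference -1.61 ± 0.20), and Igf2bp1, which binds Igf2 mRNA, was higher by 1.51 ± 0.16.

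**Figure D3:**
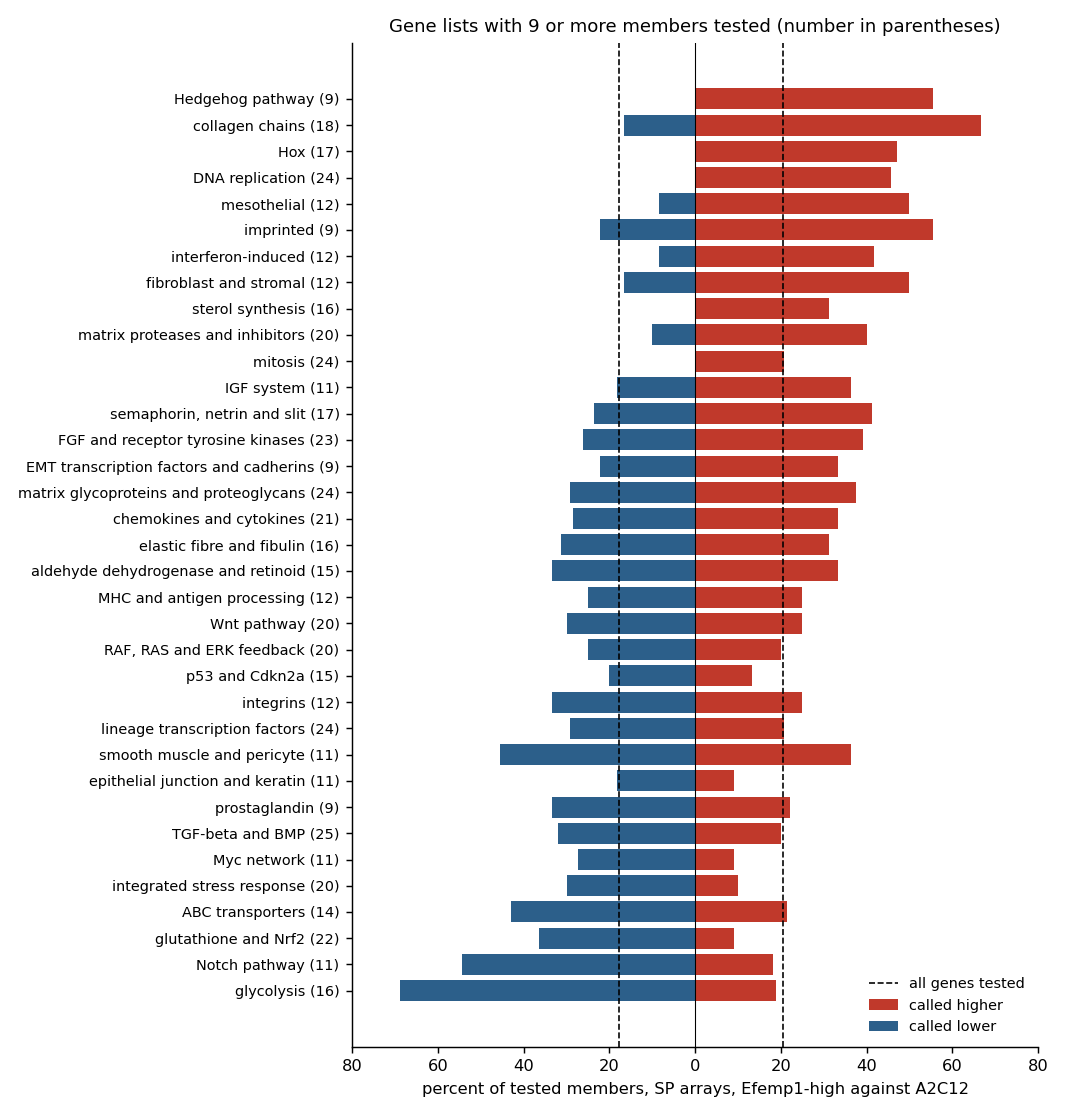
Percent of tested members called higher (right, red) and lower (left, blue) in the SP arrays for the gene lists with 9 or more members tested, ordered by the balance of the 2 bars. Dashed lines mark 20.4% and 17.7%, the shares among all genes tested, and the lists run from Hedgehog and collagen genes at the top to Notch and glycolysis genes at the bottom.

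Signalling pathways were described by the same counts. Hedgehog ligands act through Ptch1 and Smo on the Gli factors. Of this pathway, 5 of the 9 tested members (13 listed) were higher and 0 lower (as deposited, 6 and 0; quantile-normalized, unadjusted p under 0.05, 0 lower), with a median of 0.89. Gli2, the main activator of the pathway, was at 9.62, 9.59 and 10.03 against 6.54, 6.33 and 5.80 (SP difference 3.79 ± 0.28, limma adjusted p = 6.69e-07). Gli3, mostly a repressor, was at 9.91, 9.66 and 10.04 against 7.10, 6.63 and 6.07 (SP difference 3.40 ± 0.22). The ligand co-receptors Gas1 and Cdon were higher by 1.58 ± 0.24 and 1.19 ± 0.25. The pathway's usual readout genes were not called. Ptch1, the receptor, ranged from 9.66 to 10.27 against 10.07 to 10.42 (SP difference 0.08, 95% interval -0.38 to 0.53, limma adjusted p = 0.804) and overlapped, as did Gli1 (SP difference -0.40, 95% interval -0.84 to 0.04, limma adjusted p = 0.139). Both were picked after their values were seen.

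**Figure D4:**
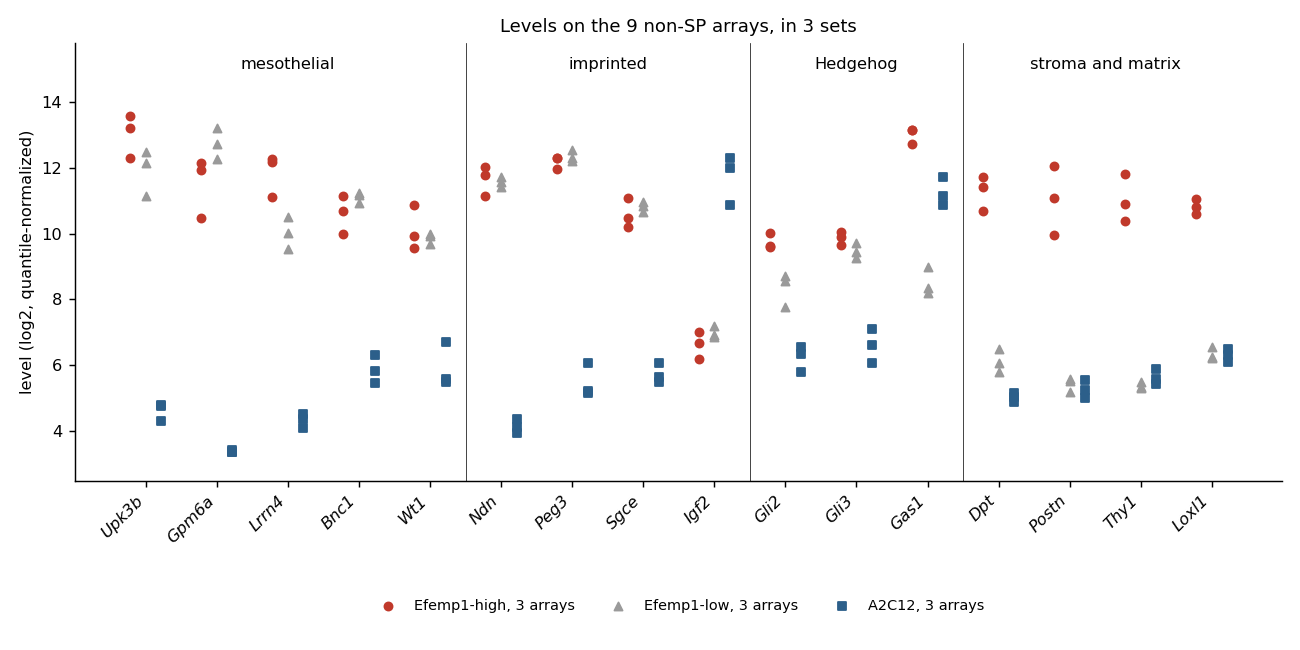
Log2 level of 16 genes on each of the 9 non-SP arrays, circles for Efemp1-high, triangles for Efemp1-low (betaD5 2, betaD5 3, cRAF_cMYC 3) and squares for A2C12. The 5 mesothelial genes drawn, Ndn, Peg3, Sgce and Gli3 are high in both sets outside A2C12, whereas Dpt, Postn, Thy1 and Loxl1 are high in the Efemp1-high arrays alone.

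Of the Wnt pathway, 5 of the 20 tested members (33 listed) were higher and 6 lower (as deposited, 6 and 4), with a median of -0.17 (0.33 as deposited). Ccn5, a matricellular protein induced by Wnt, was at 6.56, 7.07 and 6.68 against 9.92, 10.56 and 11.55 (SP difference -4.03 ± 0.30, limma adjusted p = 7.14e-07). The ligand Wnt4 was lower, at 9.41, 9.36 and 9.06 against 11.31, 11.23 and 11.60 (SP difference -2.28 ± 0.28). Wnt9a was higher by 2.29 ± 0.31, with -0.39 from another probe set. Of the Notch pathway, 2 of the 11 tested members (16 listed) were higher and 6 lower (as deposited, 2 and 1), with a median of -0.53 that turned to 0.05 on the deposited scale. Nrarp, a feedback inhibitor induced by Notch, was at 8.46, 8.08 and 8.67 against 10.86, 10.88 and 10.70 (SP difference -2.25 ± 0.21). The receptor Notch3 was lower (SP difference -1.08 ± 0.22), a call that did not hold on the deposited scale. The ligand Dll1 and the target Hey1 were higher by 1.22 ± 0.18 and 1.09 ± 0.27.

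Of TGF-beta and BMP genes, 5 of the 25 tested members (31 listed) were higher and 8 lower (as deposited, 10 and 5), with a median of -0.09 (0.45 as deposited). Id4, a dominant-negative helix-loop-helix factor induced by BMP, was at 9.94, 9.77 and 10.08 against 6.57, 6.84 and 6.55 (SP difference 3.81 ± 0.33, limma adjusted p = 3.14e-06). The activin antagonist Fst was at 9.97, 9.36 and 11.30 against 9.17, 8.12 and 7.25 (SP difference 2.58 ± 0.50). The ligand Bmp4 was lower, at 10.004, 9.74 and 8.89 against 11.10, 11.31 and 10.94 (SP difference -1.92 ± 0.41), as was the BMP antagonist Nbl1 (-1.48 ± 0.18). Without the SP array betaD5 1 or A2C12 3, 5 members were lower.

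Growth factor genes changed often. Of FGF and receptor tyrosine kinase genes, 9 of the 23 tested members (36 listed) were higher and 6 lower (as deposited, 14 and 2), with a median of 0.29. Vegfc, the lymphatic growth factor, was at 10.23, 10.40 and 10.80 against 6.98, 6.74 and 6.54 (SP difference 3.77 ± 0.28, limma adjusted p = 7.65e-07). The receptor Fgfr2 was lower, at 7.30, 7.13 and 6.87 against 9.39, 8.89 and 8.58 (SP difference -1.84 ± 0.19), and the ligand Hgf was also lower (SP difference -1.57 ± 0.18). Epha4, an ephrin receptor, was higher by 1.61 ± 0.45, with overlapping non-SP arrays and no call without the SP array betaD5 1, A2C12 2 or A2C12 3. Of the semaphorin, netrin and slit guidance genes, 7 of the 17 tested members (24 listed) were higher and 4 lower (as deposited, 8 and 3), with a median of -0.01 (0.53 as deposited). Ntn4, a laminin-binding netrin, was at 7.23, 6.44 and 6.82 against 10.38, 10.14 and 9.87 (SP difference -3.11 ± 0.24), and Slit2, a ligand of Robo receptors, at 10.54, 10.70 and 10.75 against 7.70, 7.82 and 7.69 (SP difference 2.65 ± 0.19). Plxna2 was lower (SP difference -2.07 ± 0.24) and Sema5a was higher by 2.07 ± 0.33.

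Both transgenes act on pathways that could be read on the arrays. Myc levels were 10.04, 10.38 and 10.26 against 11.12, 10.87 and 10.65, lower in every Efemp1-high array, with an SP difference of -0.57 ± 0.16 (limma adjusted p = 0.0133) that was 0.0042 on the deposited scale and missed the threshold with median centring and without the SP array betaD5 1. The labels do not say whether this probe set also reads the transgene. Of the Myc network, 1 of the 11 tested members (11 listed) was higher and 3 lower (as deposited, 2 and 1), with a median of -0.19 (0.34 as deposited). Mycn, the paralogue of neural and lung development, was at 9.84, 9.43 and 8.30 against 6.22, 6.19 and 6.64 (SP difference 2.45 ± 0.39), but its other probe sets gave -0.09 and -0.15. The Max partner Mxd4 was lower (SP difference -1.22 ± 0.25). Mycl was lower (SP difference -0.82 ± 0.16), with no call on the deposited scale.

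Of the RAF, RAS and ERK feedback genes, 4 of the 20 tested members (26 listed) were higher and 5 lower (as deposited, 10 and 1), with a median of 0.09 (0.63 as deposited). Dusp6, the ERK phosphatase induced by ERK itself, was at 10.70, 10.64 and 10.05 against 11.68, 11.30 and 10.85 (SP difference -1.21 ± 0.28, limma adjusted p = 0.00493). The feedback inhibitors Spry4, Spred1 and Spred2 were higher, by 1.11 ± 0.25, 0.96 ± 0.15 and 0.95 ± 0.19. Their other probe sets did not all follow, with SP differences of -0.28 to 0.12 for Spry4, -0.05 to 0.74 for Spred1 and -0.34 to 0.78 for Spred2. The lower members numbered 2 without the SP array cRAF_cMYC 2 and 3 without betaD5 1, A2C12 1, A2C12 2 or A2C12 3. In the p53 and Cdkn2a list, 2 of the 15 tested members (19 listed) were higher and 3 lower (as deposited, 6 and 2), with a median of -0.11 (0.45 as deposited). After Pmaip1, Phlda3, a p53-induced inhibitor of AKT, was lower, at 10.35, 10.78 and 10.41 against 12.41, 12.80 and 12.39 (SP difference -1.66 ± 0.22). Mdm2, the ubiquitin ligase of p53, was higher by 0.79 ± 0.17, with -0.52 from another probe set, and Trp53inp1 was lower (SP difference -0.64 ± 0.21), a call lost with median centring, on the deposited scale and without the SP array betaD5 1, cRAF_cMYC 2, A2C12 1 or A2C12 2.

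Immune genes of the tumour cells were mixed. Of interferon-induced genes, 5 of the 12 tested members (26 listed) were higher and 1 lower (as deposited, 6 and 0), with a median of 0.16. The GTPase Gbp2 was at 8.45, 9.11 and 9.33 against 7.05, 5.76 and 6.83 (SP difference 1.98 ± 0.21, limma adjusted p = 1.82e-05). The RNA sensor Ifih1, the GTPase Igtp and the virus-tethering protein Bst2 were higher by 1.48 ± 0.24, 1.44 ± 0.16 and 0.95 ± 0.16. Of MHC and antigen processing genes, 3 of the 12 tested members (19 listed) were higher and 3 lower (as deposited, 3 and 0), with a median of -0.12 (0.39 as deposited). The class I heavy chain H2-K1 was at 10.57, 10.96 and 10.44 against 11.80, 12.09 and 11.69 (SP difference -0.95 ± 0.21). H2-D1, a related class I heavy chain that the probes may not fully tell apart from H2-K1, was lower (SP difference -0.88 ± 0.24). B2m, the light chain that both bind, was higher by 0.66 ± 0.13. H2-K1, H2-D1 and Cd74 (-0.73 ± 0.21) were not called on the deposited scale. Without the SP array A2C12 1, 1 member of this list was higher, and without A2C12 2, 1 was lower.

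Of chemokines and cytokines, 7 of the 21 tested members (27 listed) were higher and 6 lower (as deposited, 11 and 5), with a median of 0.20. Ccl5, a T cell attractant, was at 8.86, 8.50 and 8.63 against 6.06, 6.03 and 6.43 (SP difference 2.55 ± 0.20, limma adjusted p = 1.16e-06). Csf2, the cytokine GM-CSF, was lower, at 7.38, 7.68 and 8.38 against 9.57, 10.09 and 9.30 (SP difference -2.57 ± 0.51). Of complement genes, 4 of the 6 tested members (12 listed) were higher and 1 lower (as deposited, 4 and 0), with a median of 0.62. Serping1, the inhibitor of the first complement enzymes, was at 10.16, 10.24 and 10.79 against 6.36, 6.03 and 5.82 (SP difference 4.23 ± 0.23, limma adjusted p = 5.04e-08). The protease C1s1, which Serping1 inhibits, was higher by 1.02 ± 0.25 and overlapped in the non-SP arrays. Cd59a, which blocks the membrane attack complex, was higher by 0.72 ± 0.19, and C1qtnf6 was lower (SP difference -0.74 ± 0.16), with no call on the deposited scale.

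The SP sort itself rests on ABC transporters. Abcg2, the main Hoechst exporter, was at 10.36, 10.79 and 10.40 against 8.95, 8.79 and 8.98 in these dye-retaining cells (SP difference 1.69 ± 0.18, limma adjusted p = 1.47e-05), with every Efemp1-high array above every A2C12 array. Of the ABC transporter list, 3 of the 14 tested members (18 listed) were higher and 6 lower (as deposited, 6 and 4), with a median of 0.08 (0.57 as deposited). Abcc3, an organic anion exporter, was at 7.03, 6.15 and 7.14 against 9.32, 8.73 and 8.68 (SP difference -2.10 ± 0.24), and Abca7 and Abcc4 were lower, with SP differences of -1.44 ± 0.17 and -1.42 ± 0.37. Without the SP array A2C12 2 or A2C12 3, 1 member was higher. Of the stem and progenitor list, 2 of the 8 tested members (17 listed) were higher and 4 lower (as deposited, 3 and 2), the higher ones being Aldh1a1 and Thy1. With no filter, 4 of 15 members were higher and 5 lower. Cd24a, a surface sialoglycoprotein, was lower (SP difference -1.12 ± 0.26).

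Detoxifying enzymes were lower more often than higher on the quantile-normalized scale, and the split turned on the deposited one. Of glutathione and Nrf2 genes, 2 of the 22 tested members (28 listed) were higher and 8 lower (as deposited, 7 and 3), with a median of -0.22 (0.31 as deposited). Sod3, the extracellular superoxide dismutase, was at 7.16, 6.81 and 7.06 against 9.02, 9.41 and 9.98 (SP difference -2.31 ± 0.26, limma adjusted p = 2.65e-05). The glutathione transferase Gstt1 was at 9.15, 9.17 and 9.05 against 11.01, 10.93 and 11.14 (SP difference -2.15 ± 0.33), and the aldehyde oxidase Aox1 was lower (SP difference -2.16 ± 0.23). Gclm, of the enzyme that begins glutathione synthesis, was higher by 1.09 ± 0.25 with overlapping non-SP arrays. Of aldehyde dehydrogenase and retinoid genes, 5 of the 15 tested members (24 listed) were higher and 5 lower (as deposited, 7 and 3), with a median of -0.46 (0.05 as deposited). The retinal reductase Dhrs3 was at 9.57, 9.44 and 9.66 against 6.49, 6.54 and 7.25 (SP difference 2.81 ± 0.33), and the retinoic acid carrier Crabp1 was higher by 1.73 ± 0.46.

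Of prostaglandin genes, 2 of the 9 tested members (16 listed) were higher and 3 lower (as deposited, 3 and 3), with a median of -0.10 (0.46 as deposited). Ptger4, another prostaglandin E2 receptor, was lower together with Ptger3, at 9.19, 9.54 and 9.57 against 11.43, 11.60 and 11.44 (SP difference -2.60 ± 0.23, limma adjusted p = 4.03e-06). The prostaglandin importer Slco2a1 was lower (SP difference -1.41 ± 0.26), and the phospholipase Pla2g4a, which frees arachidonic acid, was higher by 0.85 ± 0.15.

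Of the 42 lists, glycolysis had the largest share of lower members on the quantile-normalized scale. Of 16 enzymes and transporters tested (19 listed), 11 were lower (68.8%) and 3 higher, with a median of -0.54. On the deposited scale 2 were lower and 4 higher, with a median of -0.09, so most of these calls hold relative to the other genes on the array and not on the deposited scale. Aldoc, an aldolase, was at 8.50, 8.39 and 8.96 against 9.54, 10.31 and 11.003 (SP difference -1.83 ± 0.25, limma adjusted p = 0.00013). The phosphofructokinase Pfkp was at 9.69, 9.44 and 9.68 against 10.78, 11.05 and 11.31 (SP difference -1.67 ± 0.18), with 0.10 from another probe set. Pfkfb3, which makes the activator of phosphofructokinase, was higher, at 8.71, 8.02 and 8.35 against 7.51, 7.02 and 7.07 (SP difference 2.10 ± 0.19), as was the neuronal enolase Eno2 by 1.47 ± 0.29.

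**Figure D5:**
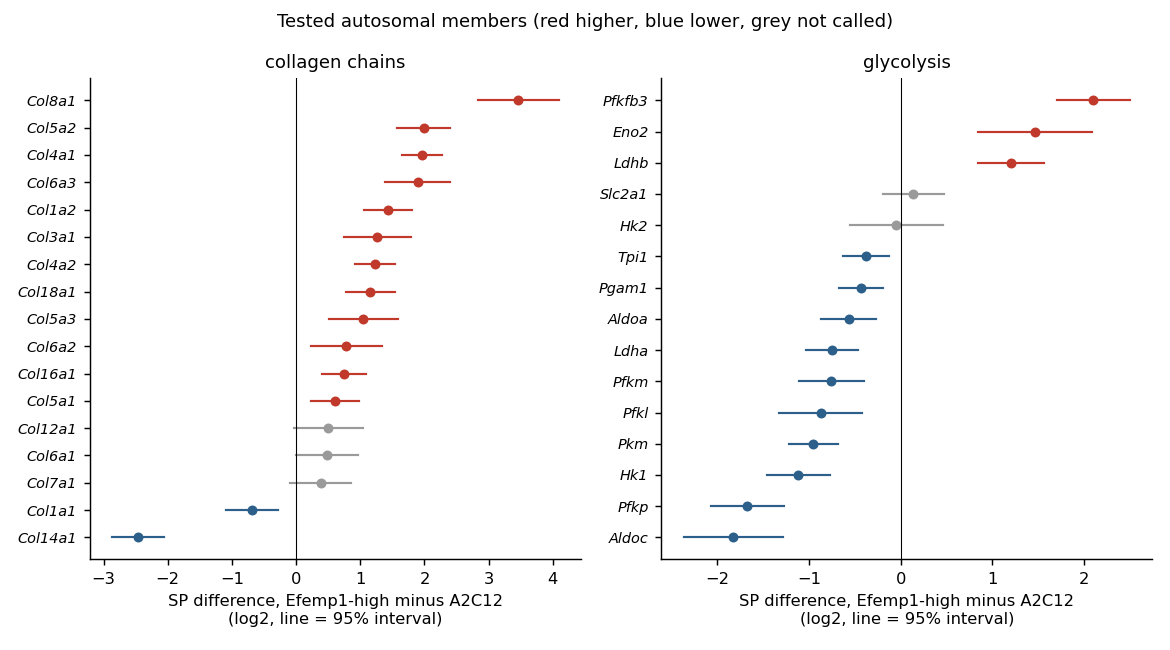
SP difference (log2, Efemp1-high minus A2C12, n = 3 and 3) of each tested autosomal collagen chain (left) and glycolysis gene (right), with points for the estimate, lines for the 95% interval and grey for genes not called. The collagen points run from Col14a1 at -2.47 to Col8a1 at 3.46, and the glycolysis points from Aldoc at -1.83 to Pfkfb3 at 2.10.

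Genes of DNA replication and sterol synthesis that were called differed by about 1 log2 or less. Of DNA replication genes, 11 of the 24 tested members (25 listed) were higher and 0 lower (as deposited, 21 and 0; quantile-normalized, unadjusted p under 0.05, 0 lower), with a median of 0.44. Mcm7, of the replicative helicase, was at 13.66, 13.62 and 13.78 against 12.96, 12.73 and 12.78 (SP difference 0.82 ± 0.13, limma adjusted p = 0.000303). The clamp loader Rfc3, the origin protein Orc1 and Mcm2 were higher by 1.10 ± 0.17, 0.92 ± 0.18 and 0.90 ± 0.17. Of mitosis genes, 5 of the 24 tested members (25 listed) were higher and 0 lower (as deposited, 17 and 0; quantile-normalized, unadjusted p under 0.05, 1 lower), with a median of 0.36, and 5 of 24 is near the share of all genes. Leaving out 1 SP array moved the higher mitosis genes to 12 (A2C12 1) or 3 (cRAF_cMYC 1, A2C12 2 or A2C12 3). The kinesin Kif20a was at 11.14, 11.70 and 11.35 against 10.29, 10.05 and 10.20 (SP difference 1.51 ± 0.26), and the cyclin-dependent kinase Cdk1 was higher by 0.67 ± 0.16.

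Of sterol synthesis genes, 5 of the 16 tested members (20 listed) were higher and 0 lower (as deposited, 14 and 0; quantile-normalized, unadjusted p under 0.05, 0 lower), with a median of 0.39, and 1 was higher without the SP array betaD5 1 and 3 without A2C12 2 or A2C12 3. Lss, lanosterol synthase, was at 11.30, 10.81 and 10.95 against 9.89, 10.24 and 10.05 (SP difference 0.83 ± 0.16, limma adjusted p = 0.0017). Of the integrated stress response genes, 2 of the 20 tested members (20 listed) were higher and 6 lower (as deposited, 5 and 3), with a median of -0.22 (0.34 as deposited). Pck2, the mitochondrial phosphoenolpyruvate carboxykinase, was at 10.77, 10.21 and 10.74 against 11.99, 12.03 and 12.37 (SP difference -1.67 ± 0.18, limma adjusted p = 1.67e-05). The stress factor Atf3 was at 9.82, 10.07 and 9.28 against 11.11, 11.42 and 10.79 (SP difference -1.55 ± 0.30), and Nupr1 and Trib3 were lower, with SP differences of -1.19 ± 0.23 and -0.92 ± 0.22, Trib3 with no call on the deposited scale. Without the SP array betaD5 1 or A2C12 3, 0 members of this list were higher.

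The Efemp1-high arrays were then set against betaD5 2, betaD5 3 and cRAF_cMYC 3, the Efemp1-low arrays, to show where they stand apart from the other arrays outside A2C12. In the SP arrays 3001 genes differed by limma (27.5%), 1568 higher (14.4%) and 1433 lower (13.1%). On the deposited scale 653 were higher, and the lower genes numbered 945, 892 and 942 without betaD5 1, cRAF_cMYC 2 and betaD5 3. The Gapdh 3' minus 5' signal was 0.07 to 0.97 in the Efemp1-low SP arrays, highest in betaD5 2 and 3, against -0.08 to 0.29 in the Efemp1-high SP arrays, and that of Actb was 0.33 to 1.06 against 0.31 to 0.60. Their part in these differences was not tested. Both sets were compared with the same A2C12 arrays, so their differences from A2C12 are not independent and are given side by side only. Cthrc1, a secreted protein of wound fibroblasts, was at 12.002, 12.73 and 12.93 in the Efemp1-high, 5.19, 4.62 and 4.38 in the Efemp1-low and 12.54, 12.99 and 13.57 in the A2C12 non-SP arrays, and the Efemp1-high minus Efemp1-low SP difference was 8.01 ± 0.28 (limma adjusted p = 1.1e-09). Serpinf1 was at 5.64, 5.52 and 5.98 in the Efemp1-low arrays (SP difference 7.62 ± 0.22). For Cthrc1 and Serpinf1 the Efemp1-high arrays lay nearer to A2C12 than to the Efemp1-low arrays. Both genes were picked for their large SP difference from the Efemp1-low arrays, so that gap was selected. Efemp1 chose the sets, so its own gap to the Efemp1-low arrays is not a result.

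Other genes were high in the Efemp1-high arrays and in neither other set. Ptn, the heparin-binding growth factor pleiotrophin, was at 11.83, 13.29 and 11.96, against 6.17, 5.54 and 6.07 in the Efemp1-low and 7.27, 7.06 and 6.69 in the A2C12 arrays, and the SP differences were 7.06 ± 0.20 and 5.99 ± 0.20. A second Ptn probe set gave -0.11 against A2C12. Vegfc was at 3.13, 3.74 and 3.36 in the Efemp1-low arrays (SP difference 6.73 ± 0.28, limma adjusted p = 5.41e-09), so the 3 sets were ordered Efemp1-high, A2C12, Efemp1-low with no overlap. Dpt, Postn, Thy1 and Loxl1 exceeded both other sets, with SP differences from the Efemp1-low arrays of 5.03, 5.04, 5.74 and 4.10.

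Upk3b, Ndn and Peg3 were high in both sets outside A2C12. Igf2 was low in both, at 7.19, 6.93 and 6.87 in the Efemp1-low arrays. Other leading genes were shared too. Efemp1-low non-SP means were 11.98 for Ivns1abp, 13.86 for Aldh1a1, 11.39 for Pmaip1, 10.02 for Nt5e, 10.19 for Colec12 and 9.52 for Rspo3. Aldh3a1 and Scara5 were low there, at 5.63 and 7.56. These differences set A2C12 apart from both other sets. Cyba, Nrep and Cxcl15 lay between, at 9.94, 8.46 and 7.71. Upk3b was at 12.16, 11.16 and 12.49 in the Efemp1-low arrays (SP difference 0.35 ± 0.41, limma adjusted p = 0.563), Ndn at 11.43, 11.58 and 11.71 (-0.01 ± 0.21, limma adjusted p = 0.97) and Peg3 at 12.19, 12.55 and 12.29 (-0.24 ± 0.20, limma adjusted p = 0.394). The mesothelial list averaged 8.99 to 9.18 there. Gpm6a was higher in the Efemp1-low than in the Efemp1-high arrays, by a signed difference of -2.02 ± 0.43. Aldh1a1 was too, with an SP difference of -1.40 ± 0.39 (limma adjusted p = 0.0192). Of the genes lowest against the Efemp1-low arrays, Parm1, a membrane mucin, was at 6.42, 6.50 and 6.38 in the Efemp1-high, 10.31, 10.74 and 10.23 in the Efemp1-low and 10.84, 9.98 and 9.88 in the A2C12 arrays (SP difference from Efemp1-low -3.71 ± 0.24). Itih2, a heavy chain that binds hyaluronan, gave -3.86 ± 0.25, Scel, sciellin, gave -3.81 ± 0.41, and the membrane receptor Plxdc2 gave -4.67 ± 0.25. Gnai1, an inhibitory G protein subunit, lay between the others, at 8.27, 8.15 and 6.99 against 10.74 to 11.09 in the Efemp1-low and 4.02, 4.20 and 3.52 in the A2C12 arrays.

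Within the Efemp1-high set the arrays were not alike for all genes. The median gene ranged over 0.37 log2 across the 3 non-SP arrays, and 382 genes ranged over 1, against 0.31 and 231 in A2C12. An array counted as apart for a gene if it lay over 1 log2 from both others, in the same direction, in both fractions. cRAF_cMYC 2 was lower for 33 genes and higher for 5, cRAF_cMYC 1 lower for 14 and higher for 2, and betaD5 1 lower for 1 and higher for 1. Genes lower in cRAF_cMYC 2 included Upk1b, Krt19, Gpm6a and Msln, which are all in the mesothelial list, Ccn2, a matricellular target of YAP, and Prex2, a Rac exchange factor, and Fst was among those higher. Its mean gap to the other arrays was -3.03 for Prex2, -2.02 for Krt19 and -1.74 for Msln. These genes were picked after their values were seen. The array whose title names another line, betaD5 1, was thus the one with the fewest genes apart from the other 2.

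Further genes named above had another probe set whose SP difference from A2C12 had the opposite sign, in addition to those given with the genes. These were Crb3, Epha4, Etv5, Gnai1, H2-D1, Itga5, Lss, Mxd4, Orc1, Plxdc2, Scel, Trp53inp1 and Zeb1. For Zeb1 it was -0.07, for Itga5 -0.21, for Epha4 -0.40 and for Gnai1 -0.17. Some named genes had another probe set with the same sign but a much smaller SP difference. Examples, not a full list, are Sgce (0.52 against 5.02), Fbln5 (0.10 against 1.60) and Loxl1 (1.52 against 4.56). Mfap5 (1.29 against 3.15) and Rspo3 (1.03 against 5.70) were similar. The differences of all these genes therefore hold for the probe set of highest mean level. For Gli3 (3.40), other probe sets gave 0.21 and 3.82.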

How the data were processed

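Gene expression of SP and non-SP cells was measured on 18 Affymetrix arrays of 45101 probe sets. The deposited values are probe-set summaries on a log2 scale, judged from their range, made by the authors with Affymetrix Expression Console, per the submitters' processing notes; its version, the summary algorithm and any normalization are not given in the sources used here. Array medians differed in the deposited values, so all 18 arrays were quantile-normalized. After 64 control probe sets were left out, 34958 probe sets had 1 gene symbol and 932 had several, which were not used; 34754 symbols were matched by gene identifier. For each of 18193 genes the probe set of highest mean level was kept, and the 40% of genes with the lowest mean over all arrays were left out, leaving 10916. No level of one probe set was set against that of another. All array columns belonged to samples of the series (0 others).

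The non-SP contrast was described by values and overlap. The 9 SP arrays, in 3 sets of 3, were fitted with limma 3.58.1 in R 4.3.3 (lmFit and eBayes with trend, two-sided, Benjamini-Hochberg over all genes tested, threshold 0.05). The number of arrays limits the precision. The fit was tested on simulated data of 10916 genes, where it recovered 78% of changes of 1 log2 and 99% of changes of 2 log2 for this comparison, with 3 false calls. The simulation changed far fewer genes than were called in the data and drew each gene's noise independently. Its recovery is therefore not the power of the comparison itself. The members and gene lists were chosen with earlier results of these data known. Named genes were first the 15 largest non-SP differences in each direction. These had to be called in the SP arrays and to have no overlap between the non-SP arrays in the same direction. Up to 4 called members of each of 42 lists were added by SP difference, or the 2 with the smallest p where none was called. The 5 largest in each direction against the Efemp1-low arrays followed, and Efemp1, Tgfbi, Abcg2 and Myc. X- and Y-linked, predicted and unplaced genes were passed over, and 56 list members had no probe set named here. Replicate numbers did not pair the lines: deviations of same-numbered SP arrays correlated at -0.133, 0.107 and -0.041. Alternatives were the deposited scale, median centring, other filters, the mean of all probe sets, no trend, the 6 compared arrays alone, blocks, the labelled lines and each array left out.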

Additional observations from a re-analysis of the deposited data

How the results depend on the processing

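On the deposited scale the counts against A2C12 became 4556 higher and 428 lower in the SP arrays and 2046 higher and 243 lower in the non-SP arrays, and 653 genes were higher than in the Efemp1-low arrays, 36% of those calls against 52.2% after quantile normalization. Median centring left 1255 genes lower. The 60% filter, which tests fewer genes, left 410 higher and 364 lower in the non-SP arrays. Grouped by labelled line, cRAF_cMYC against A2C12 gave 1105 higher and 958 lower, and betaD5 against A2C12 gave 1331 and 1101.

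Leaving out 1 array gave 1733 to 2061 higher and 1499 to 1817 lower against A2C12 in the SP arrays, 664 to 772 higher and 598 to 679 lower in the non-SP arrays, and 1147 to 1669 higher and 892 to 1591 lower against the Efemp1-low arrays, where the lower genes numbered 945 without betaD5 1, 892 without cRAF_cMYC 2 and 942 without betaD5 3. With the replicate number as a block, 2020 genes were higher and 1777 lower against A2C12 and 1248 and 1127 against the Efemp1-low arrays; the numbers do not pair these arrays. All 30 leading genes kept their call in every alternative that tested them except the 2 labelled groupings, each of which lost 2.

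Signs turned on the deposited scale for Myc (0.0042), Efemp1 (0.1628) and Cthrc1 (0.193), and with the mean of all probe sets for Etv5 (-0.3504). Under the cRAF_cMYC label Tgfbi was at -0.2841, Serpinf1 at -0.4698 and Crabp1 at -0.2872. Under the betaD5 label Tgfbi was at -2.7506, Serpinf1 at -3.2199, Pdgfra at -0.296, Tppp3 at -0.075, Hey1 at -0.6201, Gas1 at -1.5349, Vegfc at -0.6717, Gbp2 at -0.3307, Crabp1 at -1.748 and Scel at 1.5932. The labelled groups mix both sets. Other causes were not tested. Levels near the bottom of the scale limit the differences that could be read.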
